A study of Mus musculus with 12 samples.

Results

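Blocking miR-140 was compared with blocking miR-449 in the mouse cell line C3H10T1/2. The comparison used 6 of the 12 arrays of the series: 3 from cells transfected with an LNA oligonucleotide against miR-140 and 3 from cells transfected with one against miR-449. LNA stands for locked nucleic acid, whose modified sugar makes an oligonucleotide pair firmly with its microRNA and keep it from its targets. Anti-miR-449 served as the control, so both groups were transfected and both had a microRNA blocked, and neither group is untreated. The other 6 arrays, from cells given siRNA-140 (a mimic of miR-140) or siRNA-96, were outside the comparison. No source used here gives the dose or the time after transfection. The labels do not say whether the 3 arrays of a group came from separate cultures, so p-values measure only the spread between these arrays, which may be technical.

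C3H10T1/2 is an established line of mesenchymal cells from mouse embryos that can be turned towards cartilage, bone, fat or muscle. A microRNA pairs through its seed, the bases near its 5′ end, with sites in messenger RNAs and lowers their stability or translation, so blocking it can raise its targets. miR-140 is abundant in cartilage and is made from an intron of Wwp2, a ubiquitin ligase gene. The miR-449 microRNAs are made from Cdc20b, a gene of ciliated cells, and carry the seed of the miR-34 family.

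The mature sequences that were found among the microRNAs in question are shown 5′ to 3′ because the seed sets which messenger RNAs each blocked microRNA could bind. They are from RefSeq (GRCm38.p6), and capitals mark the seed, bases 2 to 8. RefSeq entries were matched for 5 of 8 names looked for; mmu-miR-140-5p, mmu-miR-449b and mmu-miR-34c-5p are named only.
mmu-miR-140-3p: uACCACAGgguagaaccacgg
mmu-miR-449a-5p: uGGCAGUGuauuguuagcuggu
mmu-miR-449c-5p: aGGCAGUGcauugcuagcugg
mmu-miR-34a-5p: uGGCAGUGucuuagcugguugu
mmu-miR-34b-5p: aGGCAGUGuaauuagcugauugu
The miR-140-3p sequence lies at chr8:107551288-107551308 on the plus strand, within the span of Wwp2. The miR-449a-5p sequence lies at chr13:113037549-113037570 and miR-449c-5p at chr13:113036008-113036028, both on the plus strand within the span of Cdc20b. The miR-449 and miR-34 sequences share 1 seed, which differs from that of miR-140-3p. The seed of miR-140-5p is not shown. The reported miR-140 targets described below were not sorted by arm or searched for seed sites, so the miR-140-3p seed is not tied to them here. The labels do not say against which arm of miR-140 the oligonucleotide was made, and these arrays measure messenger RNA, so the block itself was not measured.

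Values were log2 expression values, summarised per probe set (a group of short probes for 1 transcript). Of 45037 probe sets that were not array controls, 19102 (42.4%) had a mean of 5 or more over the 6 arrays and were tested. They covered 10067 genes named by 1 symbol. The number at 7 or more was 10931 (24.3%), at 9 or more 3797 (8.43%), at 11 or more 831 (1.85%) and at 13 or more 127 (0.282%). A value of 5 is a working limit and not a detection call, and 443 probe sets lay from 5 to under 5.1 while 473 lay from 4.9 to under 5. Brightness depends on the probes, so levels are set against this limit and against the same probe set on other arrays, not against other genes. Array medians were 4.32 to 4.36 with anti-miR-140 and 4.32 to 4.38 with anti-miR-449. Pairs of arrays correlated at 0.9942 to 0.9977 over the tested probe sets. The most alike pair was anti-miR-140 replicates 1 and 3, and the next was anti-miR-140 replicate 3 with anti-miR-449 replicate 1, across the groups. No pair of arrays was a duplicate, since at most 4.66% of values were identical. Anti-miR-449 replicate 1 stood apart in the array's 18S ribosomal RNA controls, at 10.34, 11.1 and 9.24 against 5.23 to 7.50 on the other 5 arrays.

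At baseline, genes of mesenchymal cells, of the extracellular matrix and of cell division were mostly well above the limit. The 12 brightest genes were Actb and Actg1 (cytoplasmic actins), Tpt1, Lgals1 (galectin-1), Fth1 (ferritin heavy chain), Eef1a1 (a translation elongation factor), Vim (vimentin), Tmsb10 (which binds actin monomers) and the ribosomal protein genes Rpl41, Rpl38, Rps2 and Rps29. Their means lay between 13.60 and 13.95, near the top of the range. Of 15 mesenchymal stromal markers on the array, 13 had a mean of 5 or more. Among them the hyaluronan receptor Cd44 was at 10.79, the integrin subunit Itgb1 at 10.69, the TGF-beta coreceptor Eng at 7.68 and the ecto-nucleotidase Nt5e at 5.57. Thy1, a common stromal surface marker, was at 3.80 (3.56 to 3.98 over the 6 arrays) and so fell below the limit. Mcam was also below it, at 4.98.

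**Figure D1:**
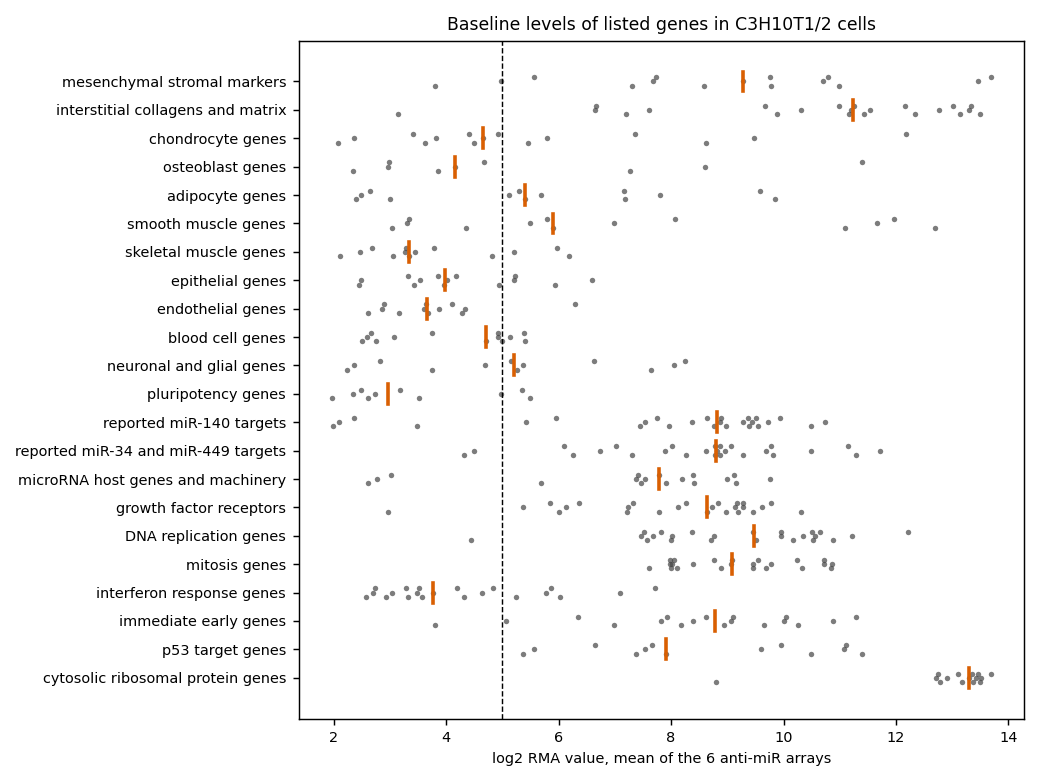
Each point is 1 gene of a list, at the mean log2 value of its brightest probe set over the 6 arrays; orange bars are list medians and the dashed line is the limit of 5. All 23 mitosis genes, all 13 p53 target genes and all 15 ribosomal protein genes measured lie to the right of the line, while 11 of 12 endothelial genes lie to its left.

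Matrix genes were measured in nearly the whole list, with 21 of 22 at 5 or more and 17 at 9 or more. The chains of type I collagen, Col1a1 and Col1a2, were at 13.50 and 13.33. Col3a1 (type III collagen) was at 12.34 and Col5a1 (type V) at 9.88. Lum, the proteoglycan lumican, was the exception at 3.14.

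Cartilage genes were split, with 6 of 15 at 5 or more. The cartilage regulator Sox9 gave 9.48, 9.51 and 9.35 with anti-miR-140 against 9.41, 9.55 and 9.53 with anti-miR-449. Col2a1 (type II collagen) gave 12.14, 12.21 and 12.06 against 12.16, 12.21 and 12.25. Both were high on every array, and the groups overlapped. Col11a1 was at 8.63 and Runx3 at 7.36, while Sox6 (5.80) and Col9a1 (5.45) were close to the limit. The aggrecan gene Acan (3.81), Col10a1 of hypertrophic cartilage (3.63), Matn1 (2.08), Hapln1 (2.36) and Comp (4.50) were below it. These defining markers of mature cartilage were therefore below the limit, while Col2a1, Sox9, Col11a1 and Runx3 were well above it.

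Lists for the other lineages open to these cells were measured in part, where 55.3% of all genes had a mean of 5 or more. Of 9 osteoblast genes, 3 reached 5: Dlx5 (7.27) and Atf4 (11.39), both transcription factors, and Tnfrsf11b (8.61), which encodes osteoprotegerin. Sp7 (4.17), Alpl (3.85) and Ibsp (2.35), which mark committed osteoblasts, did not. Of 13 adipocyte genes, 9 reached 5, among them the fat cell regulators Pparg (7.18), Cebpa (7.16), Cebpb (9.59) and Cebpd (9.85). Products of fat cells lay on both sides of the limit: Fabp4 (5.13), Lpl (5.29) and Slc2a4 (5.41) were just above it, and Adipoq (2.49), Lep (2.65) and Cd36 (2.40) below. Of 13 smooth muscle genes, 9 reached 5, among them Acta2 (12.69), the tropomyosins Tpm1 (11.67) and Tpm2 (11.09) and Tagln (5.79). Myh11 (3.30), Myocd (3.33) and Cnn1 (3.03) lay below the limit. Of 13 skeletal muscle genes, 3 reached 5: Acta1 (5.97), Tnni2 (5.21) and Mef2c (6.19). Myod1 was at 3.27.

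Markers of cells outside this lineage were mostly under the limit, except those of neurons and glia. For epithelium, 4 of 14 reached 5: Epcam (6.60), Krt8 (5.22), Cldn3 (5.94) and Grhl2 (5.21). Cdh1, Krt18 and Krt14 were at 4.18, 2.48 and 3.86. For endothelium 1 of 12 did, Flt1 at 6.30, a VEGF receptor, and Pecam1, Cdh5 and Kdr were at 2.89, 4.10 and 4.33. For blood cells 3 of 13 did: Cd68 (5.39), Csf1r (5.14) and Gata1 (5.40), with the pan-leukocyte gene Ptprc at 2.59. For neurons and glia 7 of 12 (58.3%) did, near the 55.3% over all genes. They included Tubb3 (6.62), Map2 (7.64), Rbfox3 (5.16) and Stmn2 (8.05). Snap25 (2.35) and Gfap (3.75) were below. For pluripotent cells 2 of 10 did, Esrrb (5.50) and Utf1 (5.34), with Pou5f1 at 3.19. Over the list members at 5 or more, the mean level of each array lay at 5.28 to 5.30 with anti-miR-140 and 5.30 to 5.41 with anti-miR-449 for blood cell genes. It lay at 5.65 to 5.83 against 5.64 to 5.83 for epithelial genes. The share of each cell type was not measured, and in bulk RNA fewer cells of a type and less RNA per cell cannot be told apart.

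Genes of cell division were present almost without exception, at 23 of 24 for DNA replication and 23 of 23 for mitosis. Pcna, the sliding clamp of DNA polymerase, was at 12.21 and Cdk1, the mitotic kinase, at 10.72. Targets of p53 were at 5 or more in 13 of 13 measured, with the cell cycle inhibitor Cdkn1a at 11.39 and the p53 ligase Mdm2 at 10.49. Immediate early genes were at 5 or more in 17 of 18, with Jun at 9.65 and Fos at 8.94. Interferon response genes were at 5 or more in 6 of 21. Ifit2 was at 7.72, Ifit3 at 5.77, Oas1a at 5.86 and Stat2 at 5.24. Ifit1 (3.49), Mx1 (2.58), Irf7 (3.77) and Usp18 (3.58) were below. The proportion at 5 or more over all 18193 genes with a named probe set was 55.3%.

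The comparison of anti-miR-140 with anti-miR-449 asked which messenger RNAs moved when endogenous miR-140 was blocked. At an adjusted p under 0.05 (limma with Benjamini-Hochberg adjustment), 0 of 19102 probe sets were called (0%), and the smallest adjusted p was 0.92. Differences are anti-miR-140 minus anti-miR-449 on the log2 scale. The middle 95% of them lay from -0.16 to 0.21, their median was 0.01 and their full range -0.75 to 0.51. By 0.5 or more, 5 probe sets differed, and 0 differed by 1 or more. They were those of Eif3a (0.50), Flvcr1 (0.51), Acta2 (0.50), Cbll1 (0.50) and Ndufs4 (-0.75), and in all but Eif3a the groups overlapped. Precision was close for most probe sets, as the median standard deviation within groups was 0.0877 and the median interval of 95% reached 0.16 either way. For 19093 of 19102 probe sets the interval lay inside 1 log2 unit, a 2-fold change, either way. For 18646 (97.6%) it lay inside 0.5. A change of 2-fold or more in either direction therefore lay outside the interval of all but 9 probe sets.

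**Figure D2:**
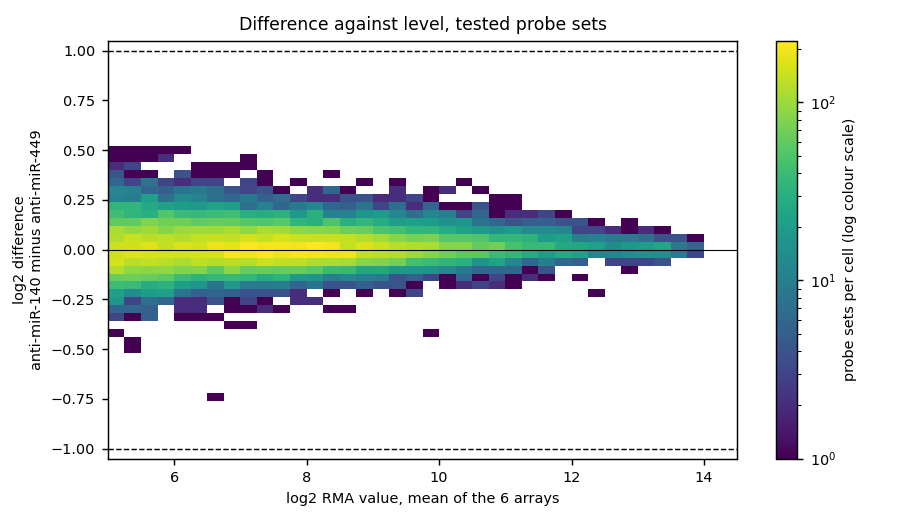
The log2 difference, anti-miR-140 minus anti-miR-449, is plotted against the mean log2 value of the 6 arrays, with colour for the number of probe sets on a log scale and dashed lines at 1 and -1. The differences narrow as level rises and 0 of 19102 reach either dashed line.

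At an unadjusted p under 0.05 (limma), 664 probe sets were higher with anti-miR-140 (3.48%) and 261 lower (1.37%), a total of 925 where 5% of those tested is 955. The groups did not overlap for 1030 probe sets higher (5.39%) and 556 lower (2.91%). A further quantile normalization, which moved the median of all differences to -0.003, gave 549 higher and 389 lower. Leaving out anti-miR-449 replicate 1 gave 1377 higher and 563 lower, and leaving out anti-miR-449 replicate 2 gave 365 and 173. The lower count was 412 without anti-miR-140 replicate 2 and 154 without anti-miR-140 replicate 3. None of these fits called a probe set.

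Most of the higher values were at probe sets that were not the brightest of their gene. Where the brightest probe set of each of the 10067 genes was taken, 168 were higher (1.67%) and 137 lower (1.36%) at an unadjusted p under 0.05. Non-overlapping groups numbered 370 higher (3.68%) and 353 lower (3.51%), and 0% were called. Among the 7309 other tested probe sets of the same genes, 455 were higher (6.23%) and 94 lower (1.29%). The other probe sets had more higher than lower values in each range of level: from 5 to under 6 it was 6.9% against 2.82%, and from 8 to under 10 it was 5.38% against 0.551%. For the brightest probe sets in those ranges the shares were 2.57% against 3.26% and 1.35% against 0.419%. The mean of the other probe sets minus that of the brightest, over 7309 pairs, was -1.52, -1.50 and -1.53 on the anti-miR-140 arrays against -1.55, -1.55 and -1.51 on the controls. Overlap was present, because anti-miR-449 replicate 3 lay above anti-miR-140 replicates 1 and 3. The difference of the group means was 0.0235, with p = 0.3 in an exact two-sided permutation test, whose smallest possible p is 0.1 with 3 arrays against 3. The contrast was drawn from the same arrays that showed the excess, so no conclusion on the excess is taken from this p. Signal near the 3′ end minus signal near the 5′ end of Actb, a measure of RNA integrity and labelling, was 0.23, 0.25 and 0.26 with anti-miR-140 against 0.29, 0.23 and 0.21 with anti-miR-449. For Gapdh it was 0.01, 0.01 and 0.06 against 0.04, 0.14 and 0. Their part in the excess was not tested.

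Among genes with the smallest unadjusted p, the leading one was Smc2, a condensin subunit that compacts chromosomes. Its probe set gave 5.49, 5.41 and 5.54 with anti-miR-140 against 5.05, 5.05 and 4.88 with anti-miR-449. The groups did not overlap, and the difference was 0.49 ± 0.07 (SE, n = 3 per group; limma adjusted p = 0.92). A brighter probe set of Smc2, at a mean of 10.13, differed by 0.06, and another, at 5.80, by 0.45. Eif3a, the largest subunit of translation initiation factor eIF3, gave 6.14, 6.24 and 6.23 against 5.79, 5.56 and 5.76, a difference of 0.50 ± 0.07 (SE, n = 3 per group). Its other probe sets, all brighter, differed by -0.01, 0.003 and 0.09. The value of Eif3a thus belonged to 1 of its 4 probe sets.

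**Figure D3:**
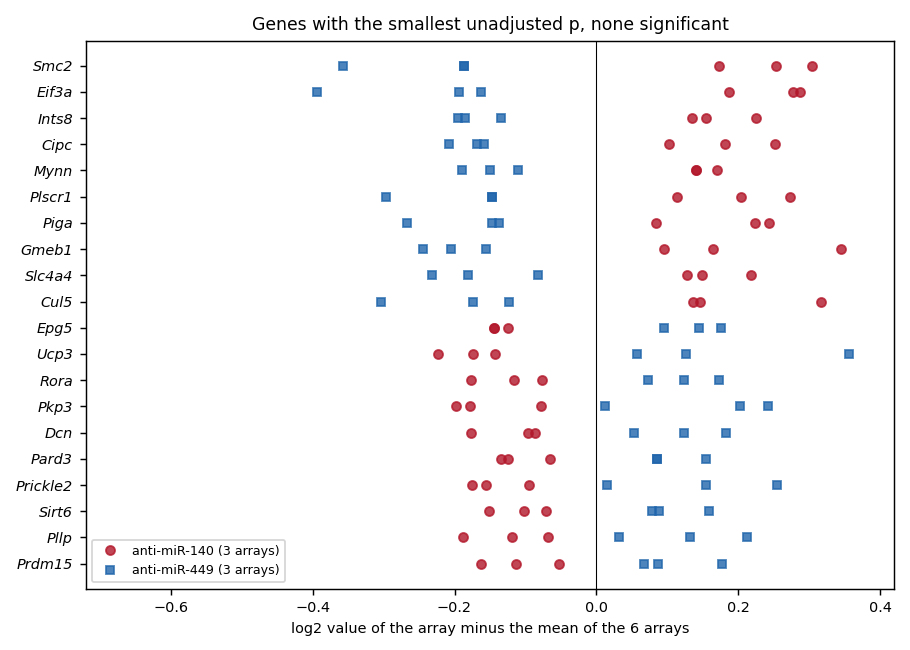
Points show each array's log2 value minus the mean of the 6 arrays for the 10 genes each way with the smallest unadjusted p, red circles for anti-miR-140 and blue squares for anti-miR-449. In all 20 genes the groups do not overlap, which is what the choice by p selects, and no adjusted p is below 0.92.

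The other genes higher with anti-miR-140 in this ranking had differences of 0.30 to 0.40. They were Ints8 (a subunit of the Integrator complex), Cipc (a partner of the clock protein CLOCK), Mynn, Plscr1 (a phospholipid scramblase), Piga (the first step of GPI anchor synthesis), Gmeb1, Slc4a4 (a sodium bicarbonate cotransporter) and Cul5 (a cullin of ubiquitin ligases). Ints8 gave 6.62, 6.55 and 6.53 against 6.20 to 6.26, while its brighter probe set, at 8.53, differed by 0.05. For Slc4a4 the brighter probe set pointed the other way, at -0.22 against 0.33. The brightest probe sets of Gmeb1, Cipc and Cul5 differed by -0.02, 0.01 and 0.01. Another Cul5 probe set brighter than the one ranked, at 5.55, differed by 0.30 (limma unadjusted p = 0.022, adjusted p = 0.953) with overlap. Others brighter than the one ranked differed by -0.10 for Cipc and by -0.06 and 0.05 for Gmeb1. In none of these genes did the brightest probe set differ by as much as the one ranked.

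Among the genes lower with anti-miR-140, Epg5, an autophagy tether, led. It gave 5.69, 5.71 and 5.69 against 6.01, 5.98 and 5.93, a difference of -0.28 ± 0.05 (SE, n = 3 per group; limma adjusted p = 0.92), and the groups did not overlap. Dcn, the collagen-binding proteoglycan decorin, gave 6.56, 6.55 and 6.47 against 6.70, 6.77 and 6.83, a difference of -0.24 ± 0.06. Of the 21 matrix genes tested, Dcn was the 1 whose groups did not overlap, beside 3.68% higher and 3.51% lower over all genes. The mitochondrial carrier Ucp3 (-0.36), the nuclear receptor Rora (-0.25), the plakophilin Pkp3 (-0.30), the polarity proteins Pard3 (-0.22) and Prickle2 (-0.28), the deacetylase Sirt6 (-0.22), the plasmolipin gene Pllp (-0.25) and Prdm15 (-0.22) followed. The brightest probe set of Rora differed by -0.05 and 2 of its other tested probe sets by 0.05 and 0.06, and the brightest of Pard3 differed by -0.15. Adjusted p-values of the lower genes ran from 0.92 to 0.953 (limma).

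By size of difference among probe sets whose groups did not overlap, Ankib1 (0.45), Ptbp3 (0.45) and the ETS factor Fli1 (0.41) joined the higher end after Eif3a and Smc2. Pttg1ip (-0.43), Atp5a1 (-0.37), Eif4ebp1 (-0.35) and Crhr1 (-0.31) joined the lower end beside Ucp3. Ptbp3, a splicing regulator, gave 5.89, 5.91 and 5.97 against 5.64, 5.48 and 5.31. Its probe set at a mean of 6.82 differed by 0.30 and the brightest, at 9.82, by 0.02. The brightest probe set of Ankib1 differed by 0.04 and that of Fli1 by -0.06, opposite in sign to the value ranked. For Pttg1ip, Atp5a1 and Eif4ebp1 the brightest probe set differed by 0.16, 0.05 and 0.02, opposite in sign to the value above.

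Reported miR-140 targets were then read as a group, since these would be higher where miR-140 was blocked. The list was written from general knowledge, and 22 of its 26 genes had a mean of 5 or more. Of these 0 were called and 0 had an unadjusted p under 0.05 in either direction (limma), beside 1.67% higher and 1.36% lower over all genes. Their median difference was 0.02, beside 0.003 over all 10067 genes. Groups did not overlap for 4 of 22, all higher with anti-miR-140, and for 0 lower, beside 3.68% and 3.51% over all genes. The 4 were Hdac4 and, named after their values were seen, Dnpep, Rala and Vegfa. Bmp2, Mmp13, Fgf9 and Lin28b were at 2.10, 2.36, 3.48 and 2.00 and were not tested.

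Hdac4, a class IIa histone deacetylase that restrains chondrocyte hypertrophy and a long-studied miR-140 target, gave 5.98, 6.02 and 6.01 with anti-miR-140. It gave 5.89, 5.93 and 5.92 with anti-miR-449, so every anti-miR-140 array was above every anti-miR-449 array. The difference was 0.09 ± 0.05 (SE, n = 3 per group; 95% interval -0.03 to 0.21; limma adjusted p = 0.953). The dimmer probe sets of Hdac4, at 5.41 and 5.08, differed by -0.06 and -0.07, and the mean of all its probe sets by -0.01.

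Cxcl12, a chemokine of stromal cells, gave 9.88, 9.99 and 9.99 against 10.08, 9.91 and 9.79. The groups overlapped, and the difference was 0.03 ± 0.08 (95% interval -0.16 to 0.21; limma adjusted p = 0.994). Smad3, which carries TGF-beta signals, gave 8.01, 7.96 and 7.93 against 8.02, 8.03 and 7.88, a difference of -0.01 ± 0.06 (95% interval -0.15 to 0.13). A dimmer Smad3 probe set, at 5.07, differed by 0.33 (limma unadjusted p = 0.034, adjusted p = 0.953), and its groups overlapped. Igfbp5, an IGF-binding protein, gave 5.59, 5.14 and 5.58 against 5.36, 5.29 and 5.56, with a wide interval of -0.26 to 0.33. Leaving out single arrays gave both signs for Cxcl12, Smad3 and Igfbp5.

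Adamts5, an aggrecanase that cuts cartilage proteoglycan, gave 10.51, 10.83 and 10.56 against 10.59, 11.07 and 10.84. Its difference of -0.20 ± 0.13 (95% interval -0.50 to 0.10; limma adjusted p = 0.953) was below 0, and the groups overlapped. Pdgfra, the PDGF receptor alpha, gave 9.21, 9.29 and 9.21 against 9.25, 9.34 and 9.34. Its difference was -0.07 ± 0.06 (95% interval -0.20 to 0.06). The dimmer probe sets of Pdgfra, at 6.15 and 5.76, differed by 0.15 and 0.03. At the brightest probe sets of Hdac4, Cxcl12, Smad3, Igfbp5, Adamts5 and Pdgfra the upper end of the interval lay between 0.06 and 0.33. These limits do not cover the dimmer probe sets of the same genes.

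**Figure D4:**
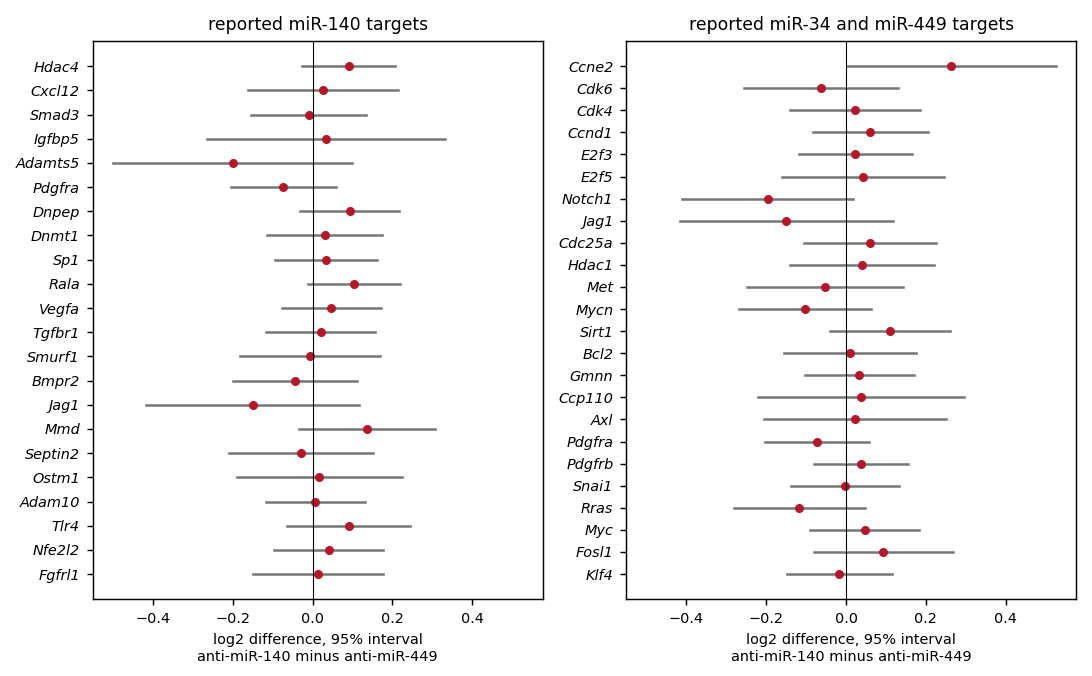
Points are log2 differences, anti-miR-140 minus anti-miR-449, and bars their 95% intervals from limma, for the listed targets with a mean of 5 or more. The 22 miR-140 targets lie between -0.20 and 0.14 and the 24 miR-34 and miR-449 targets between -0.20 and 0.26.

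Targets of the miR-34 and miR-449 seed family bear on the control arm, where miR-449 was blocked, and these would be lower in the difference if that block raised them. Of 26 listed, 24 were tested, 0 were called and the median difference was 0.02. At an unadjusted p under 0.05, 1 of 24 was higher and 0 lower, beside 1.67% and 1.36% over all genes. The 1 gene was Ccne2, cyclin E2, at 8.13, 8.20 and 8.12 against 8.17, 7.71 and 7.78, a difference of 0.26 ± 0.11 (95% interval 0.001 to 0.53; limma adjusted p = 0.953). Anti-miR-449 replicate 1 lay within the anti-miR-140 values and the other 2 anti-miR-449 arrays lay below them. Cdk6, Cdk4 and Ccnd1, which drive entry into S phase, differed by -0.06, 0.02 and 0.06. Pdgfra and the Notch ligand gene Jag1 stand on both target lists.

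The values of both host genes overlapped between the groups. Wwp2 gave 9.78, 9.72 and 9.74 against 9.87, 9.70 and 9.76, a difference of -0.03 ± 0.06 (95% interval -0.17 to 0.11; limma adjusted p = 0.991). Cdc20b lay between 2.72 and 2.83 on the 6 arrays, below the limit, and was not tested. Of 17 microRNA host and machinery genes, 14 were tested and 0 had an unadjusted p under 0.05, beside 1.67% higher and 1.36% lower over all genes. Drosha, Dgcr8 and Xpo5, which process and export microRNA precursors, differed by -0.04, 0.05 and 0.06.

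Several cell cycle genes varied among the anti-miR-449 arrays. The replicative helicase subunit Mcm3 gave 9.98, 9.99 and 10.03 with anti-miR-140 against 10.11, 9.83 and 9.75 with anti-miR-449. Its partner Mcm2 gave 9.50, 9.59 and 9.46 against 9.52, 9.32 and 9.34. In both, anti-miR-449 replicates 2 and 3 were the lowest arrays and anti-miR-449 replicate 1 stood with or above the anti-miR-140 arrays. Of 23 replication genes tested, 2 were higher at an unadjusted p under 0.05 and 0 lower, with a median difference of 0.05, beside 1.67% and 1.36% over all genes. The 2 were Ccne2 and, named after its value was seen, the licensing factor Cdc6 (0.21 ± 0.09). Of 23 mitosis genes 1 was higher and 0 lower, beside the same 1.67% and 1.36%, with a median of 0.03. It was the spindle motor Kif11 (0.19 ± 0.07), also named after its value was seen, while Cdk1 differed by 0 to 2 decimals. None was called.

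The remaining lists gave 0 calls each. The lists for cells outside this lineage had 4 epithelial, 1 endothelial, 3 blood cell, 7 neuronal and glial and 2 pluripotency genes tested. Among them the erythroid factor Gata1 (-0.15 ± 0.06) was the 1 gene with an unadjusted p under 0.05 (0.0499, limma). The share over all genes was 1.67% higher and 1.36% lower. Gata1 gave 5.28, 5.42 and 5.29 against 5.49, 5.41 and 5.53, so its groups overlapped. Growth factor receptors had a median of -0.05 over 24 genes and collagens and matrix -0.05 over 21. Pdgfrb and Fgfr1, receptors of PDGF and FGF, differed by 0.04 and 0.00. Fos gave 9.58, 8.49 and 9.25 against 8.97, 8.65 and 8.68, a difference of 0.34 ± 0.24 with anti-miR-140 replicate 2 the lowest array. The median was 0.09 for the 17 immediate early genes and 0.11 for the 6 interferon response genes. In either list 0 had an unadjusted p under 0.05, beside 1.67% higher and 1.36% lower over all genes. Ifit2 and Ifit3 differed by 0.07 ± 0.10 and 0.20 ± 0.14. Array means over the 6 interferon genes were 6.21 to 6.54 with anti-miR-140 against 6.19 to 6.24 with anti-miR-449. Anti-miR-140 replicate 2 was the highest array for Ifit3 (6.15), Rtp4 (6.55), Stat2 (5.69) and Ddx58 (7.34), but not for Ifit2 or Oas1a. The p53 targets had a median of 0.02 over 13, with Cdkn1a at -0.09 and Mdm2 at 0.19. The 15 ribosomal protein genes differed by -0.04 to 0.03. Tnfrsf11b gave 8.61, 8.91 and 8.78 against 8.44, 8.29 and 8.63, with overlap at 1 array of each group. Its difference was 0.31 ± 0.10 (limma unadjusted p = 0.017, adjusted p = 0.953). Of the 3 osteoblast genes tested it was the 1 higher at an unadjusted p under 0.05, with 0 lower, beside 1.67% and 1.36% over all genes. Sox9 and Col2a1 differed by -0.05 ± 0.07 and -0.07 ± 0.06.

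The widest spread lay within groups. Of the tested probe sets, 110 had a standard deviation within groups above 0.3 and 8 above 0.5. Ndufs4, a subunit of respiratory complex I, gave 5.41, 7.71 and 5.48 with anti-miR-140 against 5.52, 7.77 and 7.55 with anti-miR-449, at 1 of its probe sets. Its difference was -0.75 ± 0.74 and followed neither label. Another Ndufs4 probe set, the brightest, spanned 8.30 to 8.68.

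**Figure D5:**
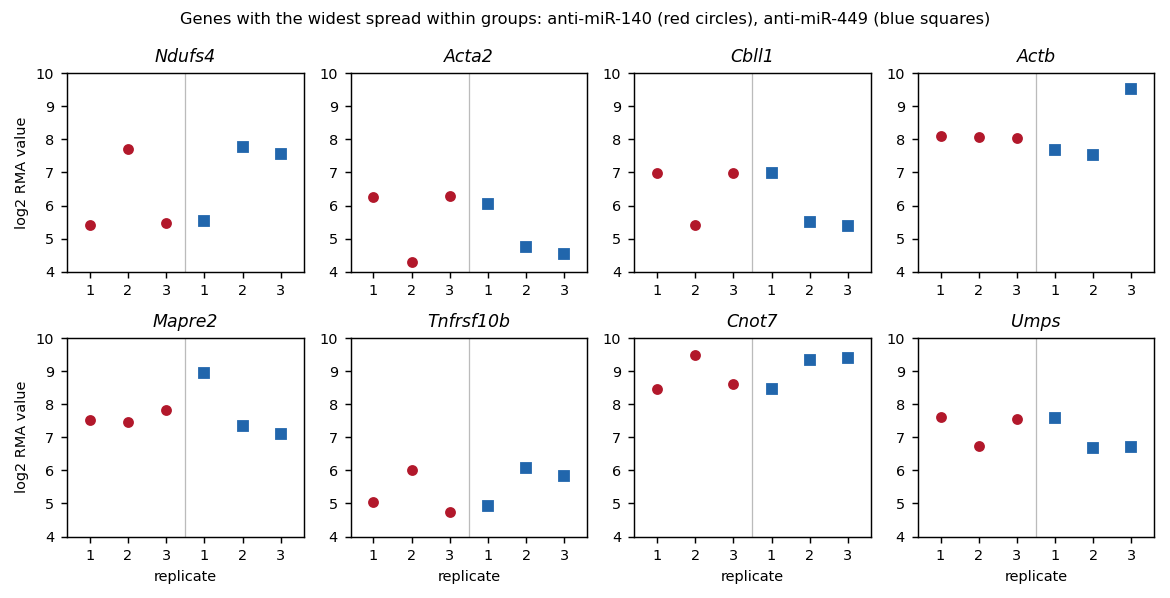
Log2 values of the 8 genes with the widest spread within groups are shown for each array at the probe set that varied, with red circles for anti-miR-140 and blue squares for anti-miR-449. In Ndufs4, Tnfrsf10b and Cnot7 the high arrays are anti-miR-140 replicate 2 and anti-miR-449 replicates 2 and 3, and in Acta2, Cbll1 and Umps those arrays are the low ones.

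The arrays divided the same way at probe sets of several other genes. Cnot7, a deadenylase that shortens poly(A) tails, gave 8.47, 9.49 and 8.62 against 8.47, 9.35 and 9.39 at its brightest probe set. Its other 2 probe sets divided the arrays in the opposite direction, at 8.93, 8.48 and 9.02 against 9.13, 8.53 and 8.47 and at 6.70, 6.51 and 6.89 against 6.90, 6.42 and 6.41. A dimmer probe set of Umps, a pyrimidine synthesis enzyme, ran the opposite way at 7.60, 6.75 and 7.55 against 7.57, 6.69 and 6.72. A dimmer probe set of Cbll1, an E3 ubiquitin ligase also called Hakai, gave 6.97, 5.42 and 6.97 against 6.97, 5.49 and 5.39. In Acta2, smooth muscle actin, it was a dim probe set that divided, at 6.27, 4.28 and 6.29 against 6.05, 4.75 and 4.53, while the brightest spanned 12.66 to 12.75. Tnfrsf10b, a TRAIL receptor, and Glo1, glyoxalase 1, had the order of Ndufs4, and Tent2 and Flvcr1 that of Umps.

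A second kind of spread involved a single array. A probe set of Actb gave 9.53 on anti-miR-449 replicate 3 and 7.52 to 8.10 on the other 5, and a probe set of Mapre2, a microtubule end-binding protein, gave 8.95 on anti-miR-449 replicate 1 and 7.11 to 7.84 on the others. The brightest probe sets of both genes spanned 13.90 to 13.97 and 8.51 to 8.62. The first principal component of the 6 arrays held 35.2% of the variance. Its scores were -4.67, 3.12 and -8.84 with anti-miR-140 against -9.99, 7.53 and 12.90 with anti-miR-449, so it placed both groups on both sides of 0. The probe sets of Actb and Mapre2 were among those at its ends, as were those of Ndufs4, Tnfrsf10b, Cnot7 and Glo1 at one end and Acta2, Cbll1, Tent2 and Flvcr1 at the other.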

How the data were processed

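Per the labels' protocols, total RNA was taken on RNeasy columns, labelled with biotin and hybridised to Affymetrix arrays. The authors' deposited table is on the log2 scale. The submitters' processing notes name RMA, which corrects background, sets arrays to 1 distribution and summarises probes. Neither its version nor whether all 12 arrays were normalized together is stated there. The number of arrays limits precision.

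The 6 anti-miR arrays were fitted alone as 2 group means with limma 3.58.1 in R 4.3.3 (lmFit, eBayes) on 19102 probe sets with a mean of 5 or more, with Benjamini-Hochberg adjustment at 0.05. The 64 array controls were left out. Of the tested probe sets, 17376 had 1 gene symbol in the platform annotation (503 had several, 1223 none). A gene stands for its brightest probe set unless another is mentioned. Genes picked by p, size of difference, spread or principal component stand for the probe set picked, which was often a dimmer one. Several listed genes, such as Ly6a, Runx2 and Fbn1, had no probe set with 1 symbol and were not analysed here. The code was tested on simulated data.

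The members, the 22 gene lists and the tests were chosen with earlier results of these data known. The rule for named genes took the 10 each way with the smallest p where none was called, the 5 each way with the largest difference among groups without overlap, 8 fixed genes, the first 4 measured genes of each list, the 12 brightest genes, the 8 with the widest spread within groups and 5 at each end of the first principal component. Marker genes below 5 are given as values. Samples with the same replicate number deviated together with correlations of 0.0506, 0.242 and -0.202, so the numbers were not taken as pairs. Alternatives were all 12 arrays in 1 fit, a replicate block, other level limits, quantile or median scaling, trended robust variances, array weights, leaving out each array, and 1 probe set or the mean of all probe sets per gene.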

Additional observations from a re-analysis of the deposited data

How the results depend on the processing

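None of the 19 other fits called a probe set, and their smallest adjusted p (limma) ran from 0.427, without anti-miR-449 replicate 1, to 1. Adjusted p under 0.1 or 0.25 also called 0. Counts at an unadjusted p under 0.05 moved more, from 664 higher and 261 lower. The 12 arrays in 1 fit gave 128 and 39. No filter gave 998 and 1150, a mean of 7 or more 427 and 108, and array weights 1289 and 695. The lower count was 438 at a mean of 4 or more and 170 at 6 or more. One probe set per gene gave 201 and 176, and the mean of a gene's probe sets 302 and 125; both test fewer features. Leaving out single arrays gave 365 to 1377 higher and 154 to 563 lower. The replicate block gave 581 and 274 and changed no call. The side of the first principal component as a block, chosen after seeing the data, gave 848 and 256. With 1 probe set per gene the sign turned for Eif3a (-0.0067), Mynn (-0.0433), Gmeb1 (-0.0167), Slc4a4 (-0.2167), Fli1 (-0.0567), Pttg1ip (0.1633), Atp5a1 (0.0533) and Eif4ebp1 (0.0167). With the mean of probe sets it turned for Hdac4 (-0.0133), Smad3 (0.0844) and Pdgfra (0.0378), with array weights for Wwp2 (0.0029), and with the component block for Cxcl12 (-0.0025) and Igfbp5 (-0.0300). Leaving out single arrays gave -0.0417 to 0.1033 for Cxcl12, -0.0583 to 0.0167 for Smad3, -0.0433 to 0.1817 for Igfbp5 and -0.0683 to 0.0167 for Wwp2. Of 591 gene values, 569 kept their sign. The cause of these changes in sign or count was not tested.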

Other observations

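Probe sets below a mean of 5 were fitted separately. Of 25935, 0 were called by limma (smallest adjusted p = 0.993), and 1194 had an unadjusted p under 0.05, 452 higher and 742 lower with anti-miR-140. The lower side was thus the larger one among dim probe sets, where the higher side was the larger one at 5 or more. Of 64 array controls 0 were called, with 1 higher and 1 lower at an unadjusted p under 0.05.

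At the probe sets that divided the anti-miR arrays, the 6 siRNA arrays lay at 4.79 to 5.29 for Ndufs4, 3.57 to 4.98 for Acta2 and 6.09 to 7.01 for Cbll1. The deposited values do not show whether these arrays share a scale with the anti-miR arrays, so no comparison is made.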
